A study of Homo sapiens with 8 samples.

Results

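The genes studied here encode surface antigens that are used to recognise and sort undifferentiated human pluripotent stem cells: THY1, PODXL, CD9, CD24, PROM1, EPCAM, CD99, ALPL, F11R and KIT. They were chosen by name, and every probe whose gene symbol or older alias is one of these 10 was taken. This gave 11 probes for 9 of the 10 genes, of 24526 probes on the array. F11R, which encodes a junctional adhesion molecule, was not analysed here because no probe carried its name. PODXL had 3 probes and each of the other 8 genes had 1. All 9 genes passed the detection filter and were among the 9269 genes tested.

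Human embryonic stem cells were grown on matrigel in N2B27 medium, and expression was measured after 5 days in 4 conditions with 2 arrays each. The −bFGF cells received neither factor. The +bFGF cells received 24 ng/ml bFGF (FGF2), the growth factor that human embryonic stem cell media usually contain. The +IL-11 cells received 10 ng/ml interleukin 11 without bFGF, and the +IL-11+bFGF cells received both factors at these doses. Matrigel, the N2B27 medium and the time in culture were common to all 4 conditions. The sample labels name the cell line as H1 and the paper names it as H9, which are both established lines. Whether the paired arrays of a condition stem from independent cultures is stated nowhere in the sources, and the p-values may therefore reflect technical spread alone. The median intensity of the 8 arrays lay between 113 and 121, and each array detected 10983 to 11761 probes at a detection p under 0.01.

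The antigens belong to different families, and together they form the surface profile by which undifferentiated cells are told from their derivatives. THY1 (CD90), CD24 and ALPL (tissue-nonspecific alkaline phosphatase, the enzyme behind the alkaline phosphatase stain of stem cell colonies) are held in the outer membrane by a GPI lipid anchor. PODXL (podocalyxin) is a sialomucin of the CD34 family whose sugar chains carry the TRA-1-60 and TRA-1-81 epitopes. CD9 is a tetraspanin that gathers integrins and other membrane proteins into complexes, and PROM1 (CD133) is a pentaspan protein of membrane protrusions. EPCAM is an epithelial adhesion molecule, CD99 is a glycoprotein of cell adhesion and leukocyte migration, and KIT is the receptor tyrosine kinase for stem cell factor. The arrays measured the transcripts of these genes, not the antigens on the cell surface.

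A promoter window from RefSeq (GRCh38.p14) was found for 6 of the 10 genes: CD9, CD24, PROM1, CD99, ALPL and KIT, with 17 windows over their annotated starts. CD99 has a window on X and another on Y with the same coordinates and motif counts, and both are among the 17. The windows of CD9, whose transcript was higher with bFGF, and of ALPL and KIT, whose transcripts were lower, are printed so that genes that moved in opposite directions can be set side by side. Where a gene has several annotated starts, the window with the most motif matches is shown. Each run is the 250 bases before the start, 5′ to 3′ on the strand of the gene, and capitals mark matches to the motifs searched. CD9 lies at chr12:6200150-6200399 (plus strand), ALPL at chr1:21509173-21509422 (plus strand) and KIT at chr4:54657707-54657956 (plus strand).
CD9: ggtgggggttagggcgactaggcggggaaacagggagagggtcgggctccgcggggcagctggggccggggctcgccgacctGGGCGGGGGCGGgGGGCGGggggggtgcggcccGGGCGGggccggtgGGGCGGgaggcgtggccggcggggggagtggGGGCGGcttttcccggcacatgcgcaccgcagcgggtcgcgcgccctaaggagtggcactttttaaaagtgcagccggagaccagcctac
ALPL: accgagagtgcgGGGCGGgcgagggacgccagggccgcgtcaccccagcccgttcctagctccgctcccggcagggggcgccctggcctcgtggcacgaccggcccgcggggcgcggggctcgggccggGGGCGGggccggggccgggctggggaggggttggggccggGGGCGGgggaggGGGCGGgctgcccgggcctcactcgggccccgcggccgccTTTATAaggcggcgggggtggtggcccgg
KIT: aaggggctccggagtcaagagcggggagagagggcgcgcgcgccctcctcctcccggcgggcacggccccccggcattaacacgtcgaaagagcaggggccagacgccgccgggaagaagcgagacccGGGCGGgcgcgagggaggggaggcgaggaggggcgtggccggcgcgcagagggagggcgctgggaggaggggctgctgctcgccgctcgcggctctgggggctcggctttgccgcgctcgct

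The share of G and C in the printed windows was 76.8% for CD9, 83.6% for ALPL and 76.4% for KIT, against a median of 58% over all 35116 windows. The printed windows of CD9 and ALPL were picked for their motif matches, most of them GC boxes, which favours G and C. The other windows held 52.8%, 76.8% and 44.8% for CD9 and 60.4% and 49.6% for ALPL. The GC box (GGGCGG, or CCGCCC on the other strand) occurred 6 times in the CD9 window, 4 times in the ALPL window and 1 time in the KIT window, and 42.6% of all windows hold at least 1. In CD9 the box nearest to the start lay 90 bases upstream and the farthest 168, and 2 of the boxes adjoin each other. The ALPL window also held a TATA box (TATAAA, here as TTTATA on the other strand) 29 bases upstream of the start, which 10.7% of all windows hold. Of the 17 windows of the 6 genes, 9 held the GC box, 3 the CCAAT box (CCAAT or ATTGG; 32% of all windows), 1 the ETS core (CCGGAAG or CTTCCGG; 8.52%), 1 the AP-1 site (TGACTCA or TGAGTCA; 4.2%), 1 the TATA box and 0 the octamer (ATTTGCAT or ATGCAAAT; 1.63%). The printed windows of the higher transcript and of both lower ones held GC boxes, which the choice by matches favours for CD9 and ALPL. Of the other windows of these 2 genes, the CD9 window at 76.8% held 3 GC boxes and the rest held 0. The 42.6% is over windows that were not picked this way. A match is a string of letters, not a site that was measured.

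With bFGF alone, THY1, CD9, PODXL and CD99 were higher than without it, and KIT and ALPL were lower. These are 6 of the 9 genes at an adjusted p under 0.05, beside 15.3% of all genes tested (7.33% higher and 7.96% lower). CD24, PROM1 and EPCAM did not pass. The test was limma on log2 values after background correction and quantile normalization, fitted on all 8 arrays, with Benjamini-Hochberg adjustment over all genes, and each fold change below is given with its standard error (SE). The median log2 fold change of the 9 genes was 0.37, against -0.02 for all genes. The paper's methods name a two-tailed t-test for triplicates at p < 0.05 and mention no adjustment. Run here per gene on 2 arrays per condition, with Benjamini-Hochberg adjustment added, this t-test passed 0 of the 9 genes and 2 of all genes. With so few arrays it has little power after adjustment. In these bulk samples, fewer cells of a type and less RNA per cell cannot be told apart.

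**Figure D1:**
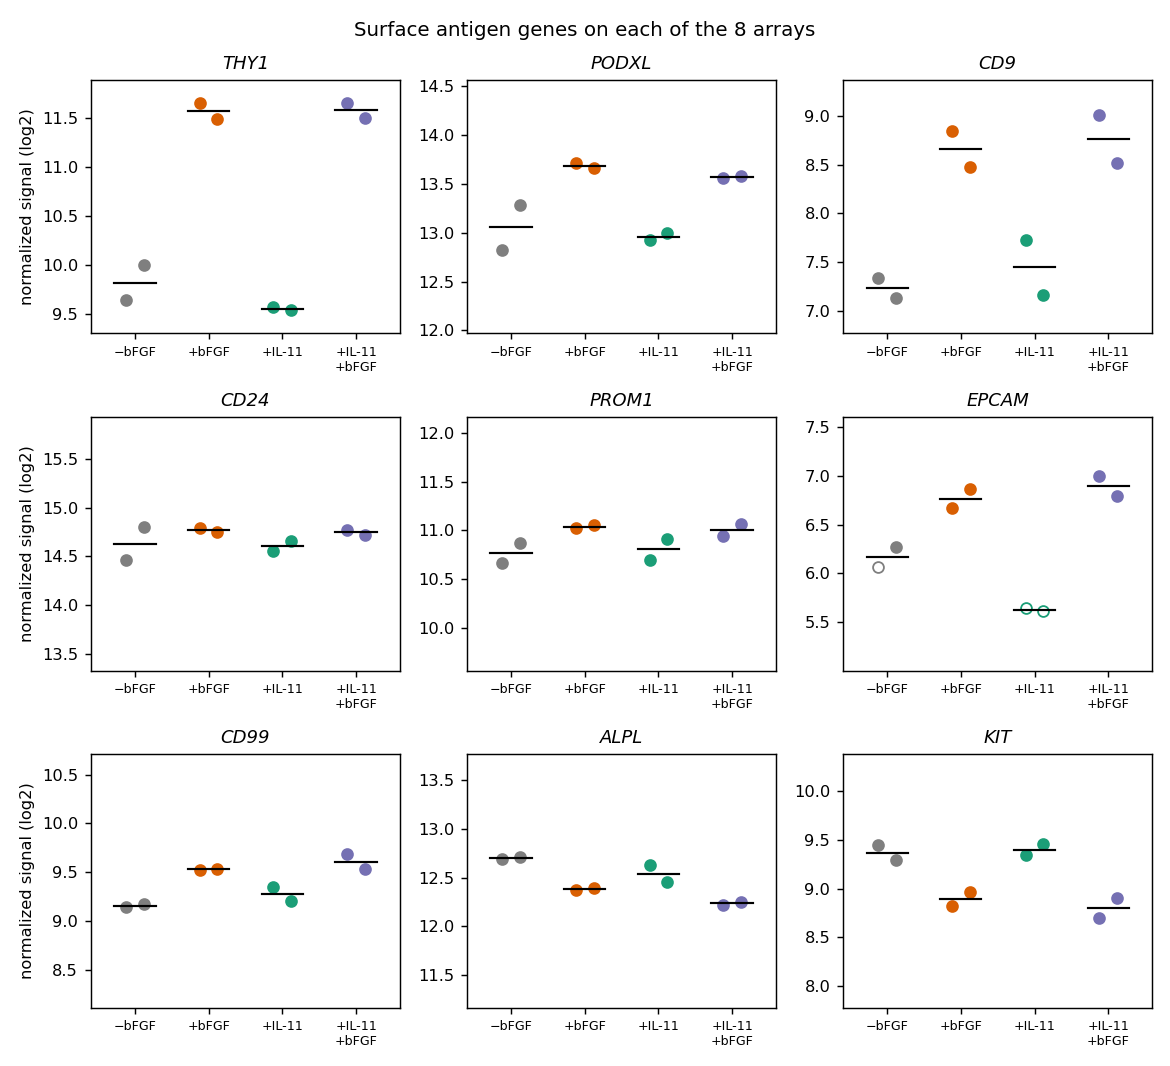
Normalized log2 signal (vertical axis, with the same span in each panel) of the 9 surface antigen genes on each of the 8 arrays, in the 4 conditions of the horizontal axis. Points are arrays, open points are arrays on which the gene was not detected, and horizontal lines are the means of 2 arrays. The arrays with bFGF lie above those without it for THY1, PODXL, CD9, PROM1, EPCAM and CD99, below them for ALPL and KIT, and among them for CD24.

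THY1 (probe ILMN_1779875), the GPI-anchored CD90 glycoprotein of the immunoglobulin family, had the widest separation of the 9 genes. Its log2 signal was 9.64 and 10.00 on the −bFGF arrays, 11.66 and 11.49 on the +bFGF arrays, 9.57 and 9.53 on the +IL-11 arrays, and 11.66 and 11.51 on the +IL-11+bFGF arrays. Before normalization these were intensities of 882 and 1050, 3427 and 2976, 808 and 768, and 3375 and 3048. All 4 arrays with bFGF were high and all 4 without it were low, with no overlap between the lowest of the first (11.49) and the highest of the second (10.00). THY1 rose 3.39-fold in +bFGF over −bFGF (log2 fold change 1.76, SE 0.13, adjusted p = 6.39e-05, limma), which was the 15th smallest p of the 9269 genes. In +IL-11+bFGF over +IL-11 it rose 4.09-fold (log2 2.03, SE 0.13, adjusted p = 2.51e-05, limma). Both rises stayed past the threshold when any single array was left out and under every other setting but the methods' t-test.

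THY1 is also a marker of fibroblasts, which can arise in these cultures as support cells, so the fibroblast genes were read beside it. The list holds 17 genes, of which 13 were tested. Their summed signal was 61220 to 62410 on the −bFGF arrays, 41570 to 54730 on the +bFGF arrays, 61830 to 82870 on the +IL-11 arrays and 44470 to 51650 on the +IL-11+bFGF arrays. It was lower on every array with bFGF, where THY1 was higher, and this held in the deposited normalized table, with median scaling and without background correction. The brightest genes weigh most in such a sum, and the median log2 fold change of the 13 with bFGF alone was -0.19. The part of fibroblasts in the THY1 signal was not tested. Of the 13, COL3A1, a fibrillar collagen, fell 1.83-fold in +bFGF over −bFGF (adjusted p = 0.0266, limma) and 0 rose, beside 7.96% of all genes lower and 7.33% higher. Others lay on the higher side without passing, with log2 differences of 0.56 for COL6A3 (adjusted p = 0.0722), 0.56 for LOX (0.147), 0.44 for TWIST1 (0.0729), 0.40 for SPARC (0.0783) and 0.23 for S100A4 (0.287). In +IL-11+bFGF over +IL-11, 4 fell, beside 5.67% of all genes: DCN 2.44-fold, ACTA2 2.00-fold, THBS1 1.92-fold and COL3A1 1.86-fold. Each of the 13 was detected on at least 1 array of every condition.

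CD9 (ILMN_1695423) read 7.34 and 7.14 on the −bFGF arrays, 8.84 and 8.48 on the +bFGF arrays, 7.73 and 7.17 on the +IL-11 arrays, and 9.00 and 8.52 on the +IL-11+bFGF arrays. The arrays with and without bFGF did not overlap, although the 2 arrays within a condition lay up to 0.57 apart. This tetraspanin transcript rose 2.69-fold with bFGF alone (log2 1.42, SE 0.23, adjusted p = 0.00366, limma) and 2.48-fold when IL-11 was present (log2 1.31, SE 0.23, adjusted p = 0.00633, limma). The second call was lost without +IL-11 replicate 2 (log2 1.03, adjusted p = 0.0531) and without +IL-11+bFGF replicate 1 (log2 1.07, adjusted p = 0.0557).

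PODXL was bright on 2 of its 3 probes. On ILMN_2413158, the probe tested for the gene, the signal was 12.82 and 13.29 on the −bFGF arrays, 13.71 and 13.67 on the +bFGF arrays, 12.93 and 12.997 on the +IL-11 arrays, and 13.56 and 13.59 on the +IL-11+bFGF arrays. The arrays with bFGF were again all above those without it, with −bFGF replicate 2 nearest to them. The sialomucin transcript rose 1.55-fold with bFGF alone (log2 0.63, SE 0.13, adjusted p = 0.00983, limma) and 1.53-fold when IL-11 was present (log2 0.61, SE 0.13, adjusted p = 0.0135, limma).

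The second probe of PODXL, ILMN_1711311, read 9.46 and 10.06, then 10.45 and 10.34, then 9.53 and 9.59, then 10.42 and 10.25 in the same order of conditions. Tested on its own among all probes, it gave 1.55-fold with bFGF alone (adjusted p = 0.0362, limma) and 1.71-fold with IL-11 present (adjusted p = 0.0209, limma), so both probes moved the same way and passed. The third probe, ILMN_2297511, lay between 4.60 and 4.89 and was not well above background on any of the 8 arrays. The PODXL rise with bFGF alone lost its call without +bFGF replicate 1 (log2 0.61, adjusted p = 0.0584), and the rise with IL-11 present lost it without any 1 of the 4 arrays compared (adjusted p = 0.0532 to 0.0815).

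EPCAM (ILMN_2160209), the epithelial adhesion molecule, lay close to the limit of detection on its only probe. How well this probe reads the gene was not tested. Its signal was 6.06 and 6.27 on the −bFGF arrays, 6.66 and 6.86 on the +bFGF arrays, 5.65 and 5.61 on the +IL-11 arrays, and 6.99 and 6.80 on the +IL-11+bFGF arrays. It was detected on 1 of 2 −bFGF arrays, on 2 of 2 +bFGF arrays, on 0 of 2 +IL-11 arrays and on 2 of 2 +IL-11+bFGF arrays. The 4 arrays with bFGF were the 4 highest. With bFGF alone the log2 difference was 0.60 (SE 0.18), and the adjusted p of 0.0514 (limma) missed the threshold. It passed with the deposited normalized table (log2 0.76, adjusted p = 0.0366), with median scaling (adjusted p = 0.0489) and without the intensity trend (adjusted p = 0.0229).

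Where IL-11 was present, EPCAM was at least 1.60-fold higher with bFGF than without it (limma log2 fold change 1.27, SE 0.18, adjusted p = 0.00223). The bound sets the mean of the brighter arrays against the lowest signal among probes well above background on the dim arrays, and the p belongs to the fitted fold change. This call held when any single array was left out. EPCAM passed the detection filter only through the conditions with bFGF, where it is high, so its passing there is partly set by the filter. Where detection on all 8 arrays was required, EPCAM was not tested, and 5 of the antigen genes passed with bFGF in the presence of IL-11 and 4 in +IL-11 over +bFGF.

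CD99 (ILMN_2056032) read 9.14 and 9.17 on the −bFGF arrays, 9.52 and 9.54 on the +bFGF arrays, 9.35 and 9.21 on the +IL-11 arrays, and 9.68 and 9.53 on the +IL-11+bFGF arrays. The arrays with bFGF were all higher, by a small margin. CD99 rose 1.29-fold with bFGF alone (log2 0.37, SE 0.11, adjusted p = 0.0442, limma), a call that was lost when any single array was left out (adjusted p = 0.0567 to 0.155). With IL-11 present the log2 difference was 0.33 (SE 0.11, adjusted p = 0.0796, limma) and did not pass.

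CD24 and PROM1 did not pass in any comparison. CD24 (ILMN_2060413), a small heavily glycosylated GPI-anchored protein, read 14.46 and 14.80, then 14.79 and 14.75, then 14.55 and 14.66, then 14.77 and 14.71 in the order −bFGF, +bFGF, +IL-11 and +IL-11+bFGF. Its arrays with and without bFGF overlapped, and the 95% interval of the log2 difference with bFGF alone ran from -0.09 to 0.36. CD24 has closely similar processed copies in the genome, and whether its probe reads the gene alone was not tested. PROM1 (ILMN_1786720) read 10.66 and 10.87, then 11.02 and 11.05, then 10.70 and 10.91, then 10.95 and 11.07 in the same order. The 4 arrays with bFGF were the 4 highest, but the log2 difference with bFGF alone was 0.27 (95% interval 0.03 to 0.51, adjusted p = 0.121, limma) and with IL-11 present 0.20 (-0.04 to 0.44, adjusted p = 0.284, limma).

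ALPL and KIT ran opposite to the rest. ALPL (ILMN_1701603) read 12.69 and 12.71 on the −bFGF arrays, 12.37 and 12.39 on the +bFGF arrays, 12.62 and 12.45 on the +IL-11 arrays, and 12.22 and 12.25 on the +IL-11+bFGF arrays. The 4 arrays with bFGF were the 4 lowest. The alkaline phosphatase transcript fell 1.25-fold with bFGF alone (log2 -0.32, SE 0.08, adjusted p = 0.0257, limma) and 1.24-fold with IL-11 present (log2 -0.30, SE 0.08, adjusted p = 0.0376, limma). The first call was lost without any 1 of the 4 arrays compared (adjusted p = 0.0637 to 0.109), with the deposited normalized table (log2 -0.26, adjusted p = 0.0648) and with median scaling (log2 -0.23, adjusted p = 0.107), all with the same sign. The second was lost with the deposited normalized table (adjusted p = 0.0796), with median scaling (0.145), without the detection filter (0.0606), without the intensity trend (0.104), with only the arrays compared (0.0701) and when any 1 array was left out other than those of −bFGF and +IL-11 replicate 2 (0.0529 to 0.214, the highest when +IL-11 replicate 1 was missing).

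KIT (ILMN_2229379) read 9.44 and 9.29 on the −bFGF arrays, 8.83 and 8.96 on the +bFGF arrays, 9.34 and 9.46 on the +IL-11 arrays, and 8.70 and 8.90 on the +IL-11+bFGF arrays. Again the arrays with bFGF were the 4 lowest, without overlap. The receptor transcript fell 1.39-fold with bFGF alone (log2 -0.47, SE 0.12, adjusted p = 0.0289, limma) and 1.51-fold with IL-11 present (log2 -0.60, SE 0.12, adjusted p = 0.0129, limma). The first call was lost without any 1 of the 4 arrays compared (adjusted p = 0.0546 to 0.155), and the second without +IL-11 replicate 1 (0.0513), +IL-11 replicate 2 (0.0964) or +IL-11+bFGF replicate 1 (0.109). KITLG, which encodes the ligand of KIT, differed by 0.35 (SE 0.25, adjusted p = 0.384, limma) with bFGF alone and did not pass.

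When IL-11 was present, bFGF moved 6 of the 9 genes past the threshold, beside 11.3% of all genes tested (5.63% higher and 5.67% lower): THY1, CD9, PODXL and EPCAM were higher, and KIT and ALPL were lower. The median log2 fold change of the 9 was 0.33, against -0.002 for all genes. Set side by side, the difference with and without IL-11 in the medium was 2.03 and 1.76 for THY1, 1.31 and 1.42 for CD9, 0.61 and 0.63 for PODXL, and -0.60 and -0.47 for KIT. These 2 comparisons share no arrays, but their SEs and p-values draw on a shared estimate of spread from all 8 arrays. Pooling the 4 arrays with bFGF against the 4 without it, 8 of the 9 genes did not overlap, 6 of them higher and 2 lower, beside 30.8% of all genes (14.7% higher and 16.1% lower). EPCAM is among those counted higher here and with IL-11 present. It passed the detection filter only through the conditions with bFGF, so its place in both counts is partly set by the filter. Leaving out each array in turn gave 2 to 5 of the 9 genes past the threshold with bFGF alone and 2 to 6 with IL-11 present. With bFGF alone the count was 2 without +bFGF replicate 1 and 3 without any 1 of the other 3 arrays compared, and with IL-11 present it was 2 without +IL-11+bFGF replicate 1 and 3 without either +IL-11 array.

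**Figure D2:**
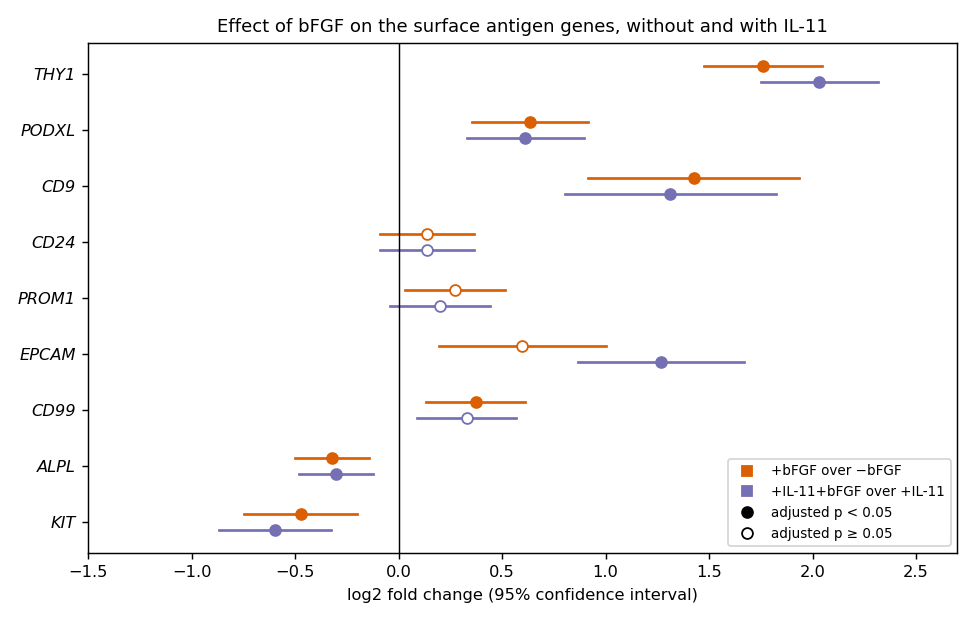
Log2 fold change with bFGF (horizontal axis) of the 9 surface antigen genes (vertical axis), without IL-11 (+bFGF over −bFGF) and with it (+IL-11+bFGF over +IL-11). Points are limma estimates from 2 arrays per condition, bars are 95% confidence intervals, and filled points have an adjusted p under 0.05. THY1 lies farthest to the right at 1.76 and 2.03, KIT and ALPL lie left of 0, and EPCAM has the widest gap between its points (0.60 and 1.27).

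Whether IL-11 gave these transcripts the levels seen with bFGF was read from 3 comparisons. The paper's case that IL-11 can replace added bFGF also draws on other evidence. Its cells were adapted over several passages on feeder cells with inhibitors that aid survival, and were judged by morphology, immunostaining and alkaline phosphatase staining. The transcripts at 5 days on matrigel do not measure that. In +IL-11 over −bFGF, 0 of the 9 genes passed, beside 0% of all genes in the limma fit, where 492 of 9269 had an unadjusted p under 0.05 (463.45 by chance). The 95% intervals of the log2 difference ran from -0.55 to 0.02 for THY1, -0.37 to 0.19 for PODXL, -0.30 to 0.72 for CD9 and -0.24 to 0.30 for KIT. EPCAM was the only one of the 9 with an unadjusted p under 0.05, at a log2 difference of -0.54 (SE 0.18, adjusted p = 0.813, limma), and since it was not detected on either +IL-11 array and on only 1 of 2 −bFGF arrays, no fold is given.

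Added to bFGF, IL-11 again moved 0 of the 9 genes past the threshold, beside 0% of all genes in the limma fit, where 161 had an unadjusted p under 0.05 and none of these was a surface antigen gene. The log2 differences in +IL-11+bFGF over +bFGF lay between -0.15 for ALPL and 0.13 for EPCAM. Their 95% intervals all held 0, the narrowest being -0.32 to 0.03 for ALPL and the widest -0.41 to 0.61 for CD9.

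**Figure D3:**
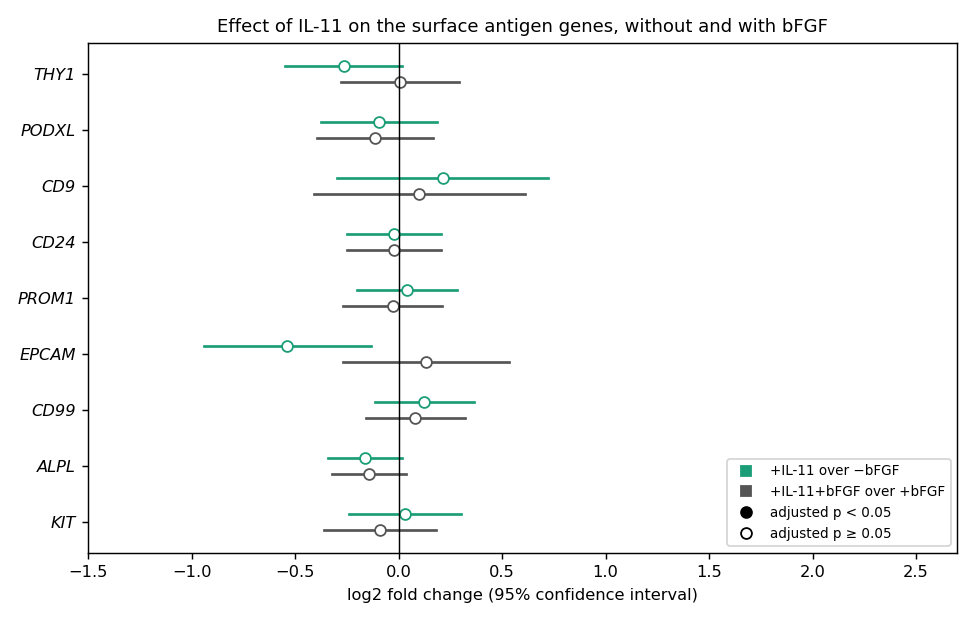
Log2 fold change with IL-11 (horizontal axis, the same range as in the plot of the bFGF effect) of the 9 surface antigen genes (vertical axis), without bFGF (+IL-11 over −bFGF) and with it (+IL-11+bFGF over +bFGF). Points are limma estimates from 2 arrays per condition, bars are 95% confidence intervals, and every point is open because no adjusted p was under 0.05. All intervals hold 0 except that of EPCAM without bFGF, at -0.94 to -0.14.

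Set directly against +bFGF, the +IL-11 cells differed in 5 of the 9 genes, beside 13.2% of all genes (6.68% higher and 6.53% lower). THY1 was 4.08-fold lower (log2 -2.03, SE 0.13, adjusted p = 2.6e-05, limma), CD9 was 2.32-fold lower (adjusted p = 0.00871) and PODXL was 1.66-fold lower (adjusted p = 0.00575). EPCAM was at least 1.46-fold lower (adjusted p = 0.00363 for the fitted change, limma), and KIT was 1.42-fold higher (log2 0.51, SE 0.12, adjusted p = 0.0242, limma). The EPCAM call is partly set by the detection filter, which it passed only through the conditions with bFGF. ALPL, which fell in both comparisons of bFGF, differed here by 0.16 (95% interval -0.02 to 0.34, adjusted p = 0.232). This comparison shares its arrays with those of bFGF alone and IL-11 alone, and leaving out each array in turn gave 3 to 5 of the 9 genes, with 3 when +bFGF replicate 1 or +IL-11 replicate 2 was missing. The CD9 call was lost in both of these fits (adjusted p up to 0.0755), and the KIT call was lost without any 1 of the 4 arrays compared (up to 0.154).

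In the order of the 4 conditions by mean log2 signal, those with bFGF stood at one end and those without it at the other for all 9 genes. The single arrays of CD24 overlapped, and CD24 passed in no comparison. How many of all genes share this order was not counted, so it is a description of these genes only. The stricter rule of no overlap between single arrays already held for 30.8% of all genes, so at least that share has this order. For THY1 the mean log2 signal was 9.55 in +IL-11, 9.82 in −bFGF, 11.58 in +bFGF and 11.58 in +IL-11+bFGF, and only the step between −bFGF and +bFGF passed the test. For CD9 the order was −bFGF (7.24), +IL-11 (7.45), +bFGF (8.66) and +IL-11+bFGF (8.76), and the step between +IL-11 and +bFGF passed. For KIT it was +IL-11+bFGF (8.80), +bFGF (8.89), −bFGF (9.37) and +IL-11 (9.40), with the step between +bFGF and −bFGF passing. EPCAM ran from 5.63 in +IL-11 through 6.17 in −bFGF and 6.76 in +bFGF to 6.90 in +IL-11+bFGF, and no single step between neighbours passed although the ends differed.

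Whether bFGF acted differently with IL-11 present was tested as a difference of the 2 bFGF effects. It passed for 0 of the 9 genes, beside 0% of all genes (176 at an unadjusted p under 0.05, limma). EPCAM had the largest difference of the 9, at 0.67 (SE 0.25, 95% interval 0.10 to 1.24, adjusted p = 0.998), which rests on signals near background. For THY1 it was 0.27 (-0.13 to 0.67), and for CD24 it was 0.00 (-0.32 to 0.32). The intervals are wide with 2 arrays per condition, so differences of this size between the effects could not be resolved.

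Of the core pluripotency genes, POU5F1, NANOG and SOX2 were detected on all 8 arrays. Detection alone does not show that the cells of every condition were undifferentiated. The paper takes the lower OCT4 and NANOG without bFGF as a sign that differentiation had begun. Of 11 tested, 6 rose and 2 fell with bFGF alone, beside 7.33% and 7.96% of all genes, with a median log2 fold change of 0.66. POU5F1, which encodes OCT4, rose 2.71-fold (adjusted p = 9.66e-05, limma), DPPA4 rose 1.93-fold and NANOG 1.80-fold, and UTF1 was at least 1.25-fold higher, detected on 1 of 2 +bFGF arrays and 0 of 2 −bFGF arrays. UTF1 passed the detection filter only through +IL-11+bFGF, where it is high, so its call is partly set by the filter. The 2 that fell, named after their values were seen, were SALL4 (1.38-fold) and LIN28A (1.23-fold), and with median scaling 0 fell. SOX2 differed by 0.02 (SE 0.08, adjusted p = 0.896). With bFGF alone and in the main fit, the surface antigen genes and the pluripotency genes both held members that rose, fell and did not pass. With IL-11 present, 6 of the 11 pluripotency genes rose and 0 fell.

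Other surface proteins of undifferentiated cells did not move on balance. Of 17 tested, 2 rose and 4 fell with bFGF alone, beside 7.33% and 7.96% of all genes, with a median of -0.01. With median scaling 2 rose and 2 fell. The ephrin receptor EPHA1 rose 2.30-fold (adjusted p = 0.0017, limma), and TNFRSF8 (CD30), a receptor of the tumour necrosis factor family, was at least 1.54-fold higher. TNFRSF8 passed the detection filter only through the conditions with bFGF, where it is high, so its call is partly set by the filter. The adhesion molecule ALCAM fell 1.43-fold and LRRN1, a leucine-rich repeat membrane protein, fell 1.40-fold. CDH1 (E-cadherin), the adherens junction protein of epithelial cells, differed by 0.07 (SE 0.18, adjusted p = 0.823).

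Of 25 partners and paralogs of the antigens, 3 rose and 1 fell with bFGF alone, a share near the 15.3% of all genes, and with IL-11 present 0 passed. The tetraspanin TSPAN4 rose 1.27-fold (adjusted p = 0.0319, limma), CD81, a tetraspanin that associates with CD9, rose 1.18-fold, and EZR (ezrin), which links podocalyxin to actin, rose 1.26-fold. CGN (cingulin), a tight junction protein, fell 1.34-fold (adjusted p = 0.0141). Among those that did not pass, PODXL2, the paralog of PODXL, differed by -0.10 (SE 0.15), CLDN7, a claudin that binds EPCAM, by 0.46 (SE 0.19, adjusted p = 0.135), and CD151, another tetraspanin, by -0.04 (SE 0.07).

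The enzymes that build the sugar epitopes carried by PODXL and by glycolipids included 1 large change. CHST4, a sulfotransferase that modifies the sugar chains of sialomucins, rose 3.03-fold with bFGF alone (log2 1.60, SE 0.16, adjusted p = 0.000315, limma) and 2.37-fold with IL-11 present (adjusted p = 0.00138). GCNT2, the branching enzyme of the I antigen, rose 1.44-fold and 1.70-fold in the same comparisons. A4GALT, which makes the globoside precursor of SSEA-3 and SSEA-4, was at least 1.18-fold lower with bFGF alone (adjusted p = 0.0477) and did not pass with IL-11 present (adjusted p = 0.412). It passed the detection filter only through the conditions without bFGF, so its call is partly set by the filter. In all, 2 of 14 rose and 1 fell with bFGF alone, beside 7.33% and 7.96% of all genes. ST3GAL2, the sialyltransferase of SSEA-4, differed by 0.25 (SE 0.14, adjusted p = 0.252), and FUT4, which makes the SSEA-1 epitope, differed by 0.03 (SE 0.17).

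The anchor of THY1, CD24 and ALPL is built by the GPI pathway, in which 0 of 21 genes rose and 2 fell with bFGF alone: PIGQ 1.45-fold (adjusted p = 0.0223, limma) and PIGC 1.25-fold (adjusted p = 0.0462), both subunits of the first enzyme of the pathway. With IL-11 present 0 of 21 passed. The counts with bFGF alone changed with the scaling: 0 rose and 1 fell with the deposited normalized table, and 1 rose and 1 fell with median scaling. The median of the list was 0.02 with bFGF alone. Among all genes, 15.3% passed with bFGF alone.

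**Figure D4:**
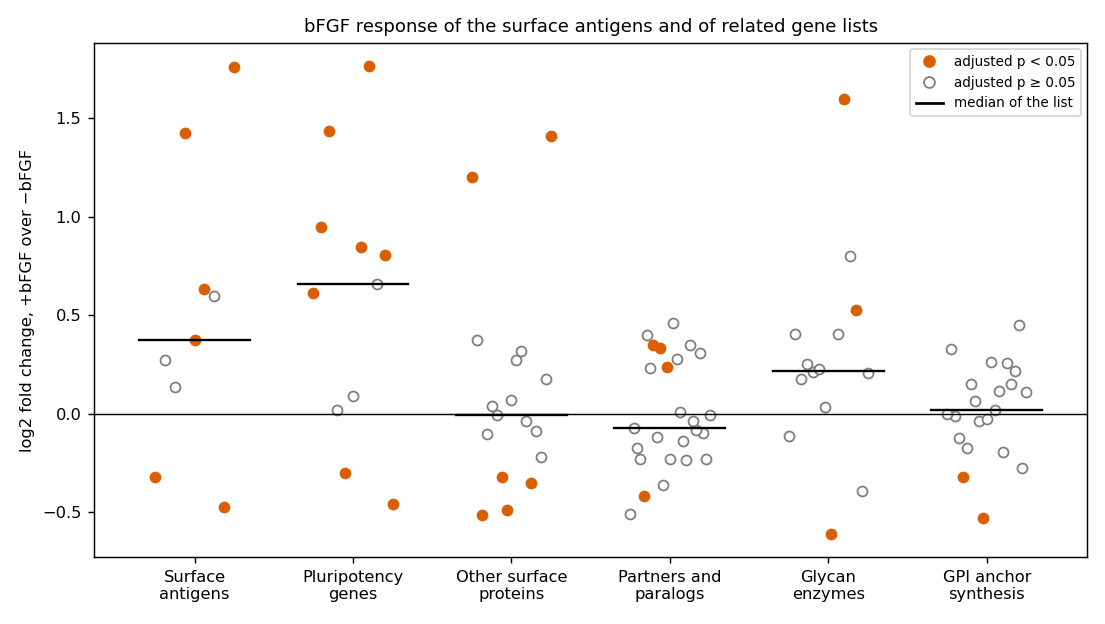
Log2 fold change in +bFGF over −bFGF (vertical axis) of each tested gene of the surface antigens and of 5 related lists (horizontal axis). Points are genes, filled where the adjusted p was under 0.05, and horizontal lines are medians, at 0.37 for the surface antigens, 0.66 for the pluripotency genes, -0.01 for other surface proteins, -0.07 for partners and paralogs, 0.22 for glycan enzymes and 0.02 for GPI anchor synthesis.

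Surface antigens of differentiated derivatives were mixed. Of 10 tested, NT5E (CD73) rose 2.00-fold and CD44 rose 2.15-fold with bFGF alone, while NCAM1 fell 1.53-fold and CDH2 (N-cadherin) fell 1.47-fold. CD44 did not pass with IL-11 present (adjusted p = 0.304, limma). Markers of other cell types also moved with bFGF: 1 of 10 neural crest genes rose and 7 fell, and 0 of 9 neuroectoderm genes rose and 6 fell with bFGF alone. Beside the counts of every list in this paragraph, 7.33% of all genes rose and 7.96% fell with bFGF alone. SOX10 fell 5.83-fold, PAX6 (detected on 1 of 2 +bFGF arrays) fell 5.37-fold, POU4F1 was at least 6.42-fold lower and FOXD3 at least 3.17-fold lower, both undetected on the 2 +bFGF arrays. PAX6, POU4F1, FOXD3, the neuroectoderm gene NEUROG2 and the mesoderm gene MIXL1 passed the detection filter only through the conditions without bFGF, where they are high. Their calls, and the counts that hold them, are partly set by the filter. The summed signal of the neural crest genes was 9604 to 11220 on the −bFGF arrays, 5700 to 6357 on the +bFGF arrays, 9612 to 11310 on the +IL-11 arrays and 5998 to 6568 on the +IL-11+bFGF arrays. For the neuroectoderm genes it was 9094 to 9559, 5671 to 6062, 8886 to 9877 and 5445 to 7056. Of the trophectoderm genes 2 of 8 rose and 2 fell, of the mesoderm genes 0 of 4 rose and 1 fell, and 0 of 7 endoderm genes passed. The part of these cells in the changes of the surface antigens was not tested. No gene of any of these lists passed in either comparison of IL-11, where 0 of all 9269 genes passed.

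By Pearson correlation of log2 values over the 8 arrays, the genes most like THY1 were SFRP2, a secreted WNT antagonist (0.9987), TRIML2 (0.9968) and CHGA, which encodes chromogranin A (0.9967). The most like CD9 were MOB3C (0.9903), MTFP1 (0.9878) and PLS1, an actin-bundling protein (0.9864). Those most like EPCAM were PTP4A3, a phosphatase (0.9881), FOSL1, a subunit of AP-1 (0.9797) and SELENOV (0.9741). Each is a maximum over 9269 genes and describes these 8 arrays only, which fall into 4 with bFGF and 4 without. EPCAM lay near the limit of detection on the arrays without bFGF, so its correlations rest partly on background signal. In +bFGF over −bFGF, SFRP2 rose 2.01-fold, CHGA rose 6.65-fold and FOSL1 rose 2.67-fold (adjusted p = 0.00231, limma), while MOB3C did not pass (log2 0.30, adjusted p = 0.181).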

How the data were processed

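Human embryonic stem cells in 4 conditions were profiled on 8 Illumina human-8 BeadChips, 2 per condition. The authors deposited the raw intensity of each probe together with its detection p-value, and a separate table of intensity values that they had normalized (rank invariant algorithm of BeadStudio, per the methods; GenomeStudio, whose version is not given in the sources used here, per the submitters' processing notes). The platform annotation gave 1 gene symbol to 21834 of 24526 probes, and 2692 are unnamed here.

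From the raw values, limma 3.58.1 (R 4.3.3) removed background by normexp (neqc, offset 16) and made the arrays comparable by quantiles, on the log2 scale. A probe stayed in if some condition had both of its arrays below a detection p of 0.01 (11668 probes, 10708 named). The brightest probe on average represented a gene. One limma fit with an intensity trend (4 residual and 5.69 prior degrees of freedom) served 6 comparisons, each with its own Benjamini-Hochberg adjustment, and was tested on simulated data. The median SE of a log2 fold change was 0.138, and the number of arrays limits the precision. For a gene undetected on both arrays of a condition, a lower bound of the fold was computed from the dimmest detected probes.

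All surface antigen genes are named with every probe. From each related list, up to 4 genes past the threshold with the largest change in +bFGF over −bFGF and up to 4 others that are direct partners, paralogs or enzymes were named, and for the 3 antigens that varied most over the conditions, the 3 genes most like them. The members and lists were chosen with earlier results of these data known. Promoter windows came from RefSeq (GRCh38.p14). As alternatives, the deposited normalized table was used (floored at 16), background correction was skipped, medians were scaled, the detection filter was dropped or tightened, each probe was tested on its own, the trend was omitted, the replicate number was a block, each comparison was fitted alone or by the t-test of the methods, and each array was left out.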

Additional observations from a re-analysis of the deposited data

How the results depend on the processing

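The methods mention no adjustment for their t-test, and Benjamini-Hochberg adjustment was added to it here. In that form 0 surface antigen genes passed in any comparison. Of all genes 2 passed with bFGF alone, 0 with bFGF in the presence of IL-11 and 0 in +IL-11 over +bFGF. Leaving out each array in turn, with the normalized values kept and a lone array assumed to vary like the others, gave 2 to 5 surface antigen genes (604 to 1293 of all genes) with bFGF alone, 2 to 6 (401 to 1120) with IL-11 present, 3 to 5 (433 to 1285) in +IL-11 over +bFGF and 0 (0 to 9) in +IL-11 over −bFGF, with 9 in the fit that lacked −bFGF replicate 1. Deviations of same-numbered arrays correlated at 0.102 to 0.195 in 5 of the 6 pairs of conditions and at -0.056 between +bFGF and +IL-11+bFGF, and the labels do not say what a number marks, so the arrays were not treated as paired. With a replicate block, 6, 6 and 5 surface antigen genes passed in the first 3 of these comparisons (1648, 1211 and 1371 of all genes), and 0 in the others. The fit to only the arrays compared was not run for the difference of effects, which uses all 8, and EPCAM was absent where detection on all 8 arrays was required. No fold change past the threshold changed sign.

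The signs that turned all belong to differences that did not pass. Leaving out single arrays, CD24 with bFGF alone ranged from -0.03 to 0.304. In +IL-11 over −bFGF the ranges were -0.326 to 0.138 for PODXL, -0.07 to 0.495 for CD9, -0.189 to 0.144 for CD24, -0.067 to 0.148 for PROM1 and -0.042 to 0.105 for KIT, and CD24 was 0.044 in the deposited table and 0.02 with median scaling. In +IL-11+bFGF over +bFGF they were -0.078 to 0.091 for THY1, -0.143 to 0.342 for CD9, -0.052 to 0.008 for CD24, -0.089 to 0.028 for PROM1 and -0.19 to 0.007 for KIT. For the difference of the bFGF effects they were -0.253 to 0.21 for PODXL, -0.396 to 0.17 for CD9, -0.166 to 0.168 for CD24, -0.178 to 0.037 for PROM1, -0.118 to 0.031 for CD99 and -0.066 to 0.104 for ALPL, and CD24 was -0.068 in the deposited table and -0.06 with median scaling. The cause was not tested.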
